A study of Homo sapiens with 6 samples.

Results

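The genes described here encode 10 enzymes that make serine, pass its carbon to folate and make proline: PHGDH, PSAT1, PSPH, SHMT1, SHMT2, MTHFD1, MTHFD2, MTHFD1L, ALDH1L2 and PYCR1. They were chosen by symbol as members of these routes, and all 10 were found among the 17114 gene symbols of each library. The RNA came from 786-O, an established human line of clear cell renal carcinoma, and went into BGISEQ-500 libraries. There were 3 Vehicle libraries and 3 XMU_MP_1 libraries, so the design holds a single comparison. XMU-MP-1 is a compound known to block the Hippo kinases encoded by STK3 and STK4. The labels call the exposure a transfection and name no dose, duration or vehicle composition. Cells of both groups were plated alike, per the labels, and no genotype or allele beyond the line itself is named. The title names YAP, TEAD4 and NF-κB in renal carcinoma, and serine and folate genes are not named there.

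Serine is made from a glycolytic intermediate in 3 steps: PHGDH oxidises it, PSAT1 adds the amino group and PSPH removes the phosphate. Serine hydroxymethyltransferases, SHMT1 in the cytosol and SHMT2 in mitochondria, split serine into glycine and a carbon unit that is carried by folate. In mitochondria MTHFD2 and MTHFD1L turn that unit into formate, in the cytosol MTHFD1 takes formate back into folate for purine and thymidylate synthesis, and ALDH1L2 oxidises formyl-folate to carbon dioxide in mitochondria. PYCR1 completes proline synthesis in mitochondria. Several of these genes are known targets of ATF4, the transcription factor of the integrated stress response.

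Values are FPKM as deposited, a level per length of transcript, so levels of different genes can be set side by side. Log2 changes are XMU_MP_1 minus Vehicle, ± SE, and were taken after adding 1 FPKM, so changes of low genes are understated. Means are given ± SD with n = 3 libraries in each group. No label says whether the 3 libraries of a group came from separate cultures, and a p-value here therefore reflects library-to-library spread that could be technical. Depth is unknown, and the summed FPKM ran from 454889 to 527709 per library. Vehicle replicate 2 and XMU_MP_1 replicate 3 stood apart from the closest pair of their own group, whose log2 values differed with an SD of 0.090 and 0.070 over 3950 genes, against 0.142 to 0.154 for the other pairs within a group. The 8 renal epithelial and carcinoma markers summed to 4449 to 4667 FPKM in Vehicle and 3794 to 4054 in XMU_MP_1. VIM alone made up most of both sums, with means of 3583 and 3187 FPKM, so they say little of the other markers. In Vehicle the means of PAX8, HAVCR1, LHX1, EPAS1 and PAX2 were 113.6, 43.63, 17.45, 17.04 and 4.033 FPKM. The 3 endothelial markers summed to at most 0.28 and the 2 listed fibroblast markers to at most 0.91, with VWF and CDH5 at or below 0.01. Of the renal markers LHX1, KRT8, KRT18 and HAVCR1 were lower and PAX8 higher, and their part in the results was not tested. PTPRC, the pan-leukocyte gene, was at 0.18 to 0.45 FPKM, and the only other leukocyte marker listed, CD68, was at 31.07 to 32.98 in all libraries. In bulk RNA fewer cells with a transcript and less transcript per cell cannot be told apart.

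Of the 10 genes 9 passed the filter of a mean of at least 1 FPKM, and PHGDH did not. In limma over 11151 genes 5 of the 9 passed as higher in XMU_MP_1, by a threshold of 0.05 on the Benjamini-Hochberg adjusted p (PSAT1, PSPH, SHMT2, MTHFD2 and ALDH1L2), 2 were lower (MTHFD1 and MTHFD1L) and 2 did not pass (SHMT1 and PYCR1). The same rule called 32.0% of all tested genes higher and 25.9% lower, 57.9% in either direction. The groups did not overlap for 7 of the 9, against 63.7% of all tested genes. The median log2 change of the 9 was 0.16, against 0.04 over all tested genes. Without Vehicle replicate 1, and likewise without XMU_MP_1 replicate 2, 3 of the 9 were higher, because SHMT2 and ALDH1L2 no longer passed. Against a minimum fold of 1.5, which 1.42% of tested genes passed as higher and 4.08% as lower, MTHFD2 was the only one of the 9 to pass. With each library scaled to the same summed FPKM, 2 of the 9 were higher (PSAT1 and MTHFD2) and 2 lower, against 19.6% and 30.9% of tested genes. That scaling also turned the balance of calls over all genes, of which 55.3% were higher as deposited and 38.8% after it. With median ratio scaling 3 of the 9 were higher and 2 lower, against 26.8% and 29.5%. With the closest libraries of each group averaged 3 were higher and 1 lower, against 24.6% and 21.7%. Without Vehicle replicate 2 and XMU_MP_1 replicate 3 there were 4 higher and 2 lower, against 36.0% and 28.4%. PSAT1, PSPH and MTHFD2 were the 3 that stayed higher with median ratio scaling and with the closest libraries averaged.

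**Figure D1:**
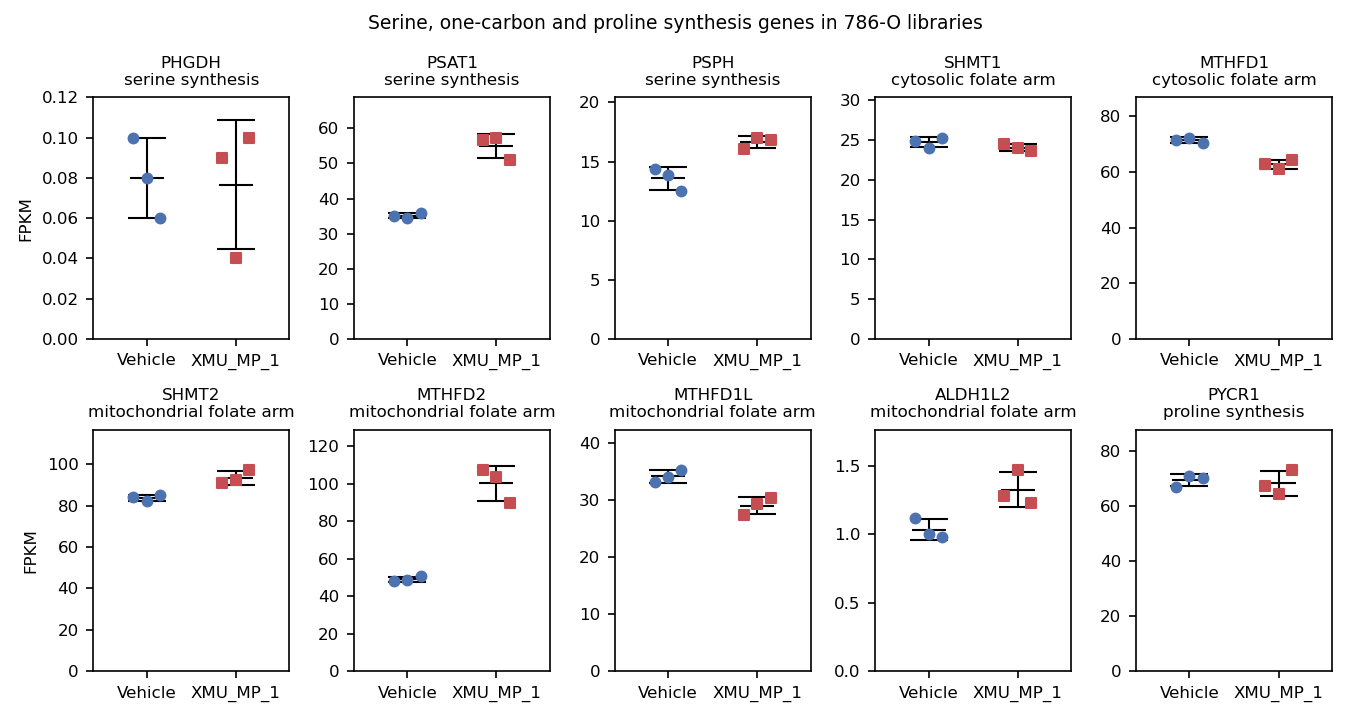
FPKM of each gene in every library, Vehicle as circles and XMU_MP_1 as squares in replicate order, with the group mean and SD as bars and every axis starting at 0. MTHFD2 and PSAT1 show the widest separation of the groups, PHGDH stays at or below 0.10 FPKM in all 6 libraries, and SHMT1 and PYCR1 overlap.

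Transcripts of the serine synthesis enzymes after the entry step were higher with XMU_MP_1, while the entry enzyme was close to the lower end of the listed values. PHGDH (chromosome 1, 119648411 to 119744226, GRCh38, protein-coding), whose product starts the route, was listed at 0.10, 0.08 and 0.06 FPKM in Vehicle replicates 1 to 3 and at 0.09, 0.04 and 0.10 in XMU_MP_1 replicates 1 to 3. The groups overlapped, and its mean level ranked at percentile 18.3 of all listed genes. Tested with no filter on low values it gave a log2 change of -0.005 (limma adjusted p = 0.918), a comparison between values too low to show a difference.

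PSAT1 (chromosome 9, 78297143 to 78330093), the aminotransferase of the route, measured 35.10, 34.36 and 36.02 FPKM in Vehicle and 56.66, 57.37 and 51.10 in XMU_MP_1. All XMU_MP_1 libraries lay above all Vehicle libraries, with replicate 3 the lowest of them. The means were 35.2 ± 0.832 and 55.04 ± 3.43 FPKM, a 1.57-fold rise with a log2 change of 0.63 ± 0.057 (limma adjusted p = 5.47e-06), larger than that of 95.9% of tested genes. PSPH (chromosome 7, 56011051 to 56051604), the phosphatase that releases serine, measured 14.37, 13.83 and 12.51 FPKM in Vehicle and 16.04, 17.02 and 16.85 in XMU_MP_1. The groups did not overlap, and the rise was smaller, 1.23-fold with a log2 change of 0.28 ± 0.063 (limma adjusted p = 0.00332). PSPH no longer passed with the libraries scaled to the same summed FPKM (log2 change 0.19, adjusted p = 0.0677). GENCODE names 4 pseudogenes for PSAT1 and 1 each for PSPH, SHMT1 and MTHFD1, and how reads shared with such copies were assigned is not given, so these levels carry that uncertainty.

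The mitochondrial folate genes went in both directions, with MTHFD2 showing the largest change of the 9 tested genes. MTHFD2 (chromosome 2, 74198562 to 74217565) encodes the mitochondrial methylene-tetrahydrofolate dehydrogenase and cyclohydrolase, an enzyme known to be high in embryonic and tumour cells. It measured 47.82, 48.53 and 50.54 FPKM in Vehicle and 107.34, 103.36 and 89.74 in XMU_MP_1. The Vehicle values lay close together, and the lowest XMU_MP_1 value, that of replicate 3, was still far above them. The means were 49.0 ± 1.41 and 100.1 ± 9.23 FPKM, a 2.05-fold rise with a log2 change of 1.01 ± 0.068 (limma adjusted p = 5.84e-07), larger than that of 99.3% of tested genes. GENCODE names 7 pseudogenes for MTHFD2, with the same uncertainty as for PSAT1.

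MTHFD1L (chromosome 6, 150865549 to 151101887), which encodes the enzyme that releases formate in the step after MTHFD2, went the other way. It measured 33.12, 34.08 and 35.30 FPKM in Vehicle and 27.34, 29.40 and 30.36 in XMU_MP_1. Every XMU_MP_1 library lay below every Vehicle library, and the means were 34.2 ± 1.09 and 29.03 ± 1.54 FPKM. That is a fall of 1.18-fold (log2 change -0.23 ± 0.056, limma adjusted p = 0.00495). Its 95% interval, -0.35 to -0.11, and that of MTHFD2, 0.86 to 1.16, lie on opposite sides of 0.

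RefSeq promoter windows (GRCh38.p14, 250 bases before to 50 after a start) were at hand for 6 of the 10 genes: PHGDH, PSAT1, SHMT1, MTHFD1, MTHFD2 and MTHFD1L. The stretches upstream of PSAT1 and MTHFD2 are shown because these genes rose most, and the MTHFD1L stretch because it alone held a motif of the ATF4 type. Each is printed along the gene's strand, with CCAAT and GGGCGG (GC box) matches in capitals for the first pair and the TGATGNAA match in capitals for MTHFD1L. PSAT1 is chr9:78296875-78297124, MTHFD2 is chr2:74198365-74198561 and MTHFD1L is chr6:150866346-150866375, all on the plus strand. The MTHFD2 stretch ends before the first annotated exon base, and the MTHFD1L stretch surrounds a match that lies just after the most upstream of the 3 starts whose windows hold it.
PSAT1: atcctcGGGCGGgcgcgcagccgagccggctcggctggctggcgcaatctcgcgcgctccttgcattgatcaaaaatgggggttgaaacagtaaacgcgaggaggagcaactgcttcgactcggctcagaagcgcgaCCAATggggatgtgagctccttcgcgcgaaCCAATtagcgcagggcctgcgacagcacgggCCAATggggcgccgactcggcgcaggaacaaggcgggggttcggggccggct
MTHFD2: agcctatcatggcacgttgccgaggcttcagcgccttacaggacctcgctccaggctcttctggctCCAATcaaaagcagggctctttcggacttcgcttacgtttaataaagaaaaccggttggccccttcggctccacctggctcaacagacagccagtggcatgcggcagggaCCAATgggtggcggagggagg
MTHFD1L: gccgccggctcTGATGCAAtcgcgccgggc

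On both strands of these windows 6 motifs were searched, and matches are a description of letters and not of binding. TGATGNAA, the composite element that ATF4 and C/EBP factors are known to share, occurred in 3.62% of the 35116 windows of all genes. Among the 6 genes MTHFD1L alone held it, as TGATGCAA in 3 of its 4 windows, 129 bases before the start of the most downstream of those. No match was found in the windows of PSAT1 and MTHFD2. CACGTG, the palindromic E-box that MYC and MAX are known to bind, occurred in 7.26% of all windows and in those of MTHFD1 and MTHFD1L. CCAAT, the letters of the NF-Y box, occurred in 34.6% of all windows and in windows of all 6 genes. In PSAT1 it lay 3 times on the gene's strand, 113, 83 and 52 bases before the start. GGGCGG, the GC box, occurred in 45% of all windows and in those of PSAT1, SHMT1 and MTHFD1L. TGACGTCA occurred in 1.85% of all windows and TGACNNNGC, the core of the antioxidant response element, in 13.3%. Among the 6 genes the former had no match and the latter had 1, in the window of MTHFD2 just after its start. No matches of different motifs overlapped in these genes.

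SHMT2 (chromosome 12, 57229327 to 57234935), the mitochondrial serine hydroxymethyltransferase gene, had the highest Vehicle level of the 10 genes. It measured 84.28, 82.03 and 84.85 FPKM in Vehicle and 90.80, 92.27 and 97.23 in XMU_MP_1. The groups did not overlap, but the difference was small, 1.12-fold with a log2 change of 0.16 ± 0.050 (limma adjusted p = 0.0207). It did not pass without Vehicle replicate 1 (0.16, adjusted p = 0.0641), without XMU_MP_1 replicate 2 (0.17, adjusted p = 0.0529), with the closest libraries averaged (0.18, adjusted p = 0.102), or with either scaling between libraries, the lower value being 0.061 (adjusted p = 0.345).

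ALDH1L2 (chromosome 12, 105019784 to 105084577), the mitochondrial formyl-folate dehydrogenase gene, was just above the filter. It measured 1.12, 1.00 and 0.98 FPKM in Vehicle and 1.28, 1.47 and 1.23 in XMU_MP_1. The values did not overlap, with a log2 change of 0.19 ± 0.074 (limma adjusted p = 0.0435). In 5 of the 6 fits that left out 1 library it missed the threshold, with adjusted p up to 0.156, and it also missed it with either scaling and with the closest libraries averaged. C12orf45, which lies on the opposite strand across 54414 bases of ALDH1L2, measured 1.48 to 1.66 FPKM in Vehicle and 1.42 to 1.67 in XMU_MP_1. The overlap is one of whole genes with their introns, and shared exon bases were not computed. Whether reads were counted by strand is not given either, so how far reads of this pair were mixed is unknown. SHMT1, SHMT2, MTHFD1, MTHFD2, MTHFD1L and PYCR1 also overlap a gene on the other strand.

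Neither cytosolic folate gene rose. SHMT1 (chromosome 17, 18327860 to 18363563), the cytosolic counterpart of SHMT2, measured 24.92, 24.01 and 25.32 FPKM in Vehicle and 24.47, 24.06 and 23.59 in XMU_MP_1. The groups overlapped, and the log2 change was -0.04 with a 95% interval of -0.15 to 0.07 (limma adjusted p = 0.513). MTHFD1 (chromosome 14, 64388031 to 64463457), which encodes the cytosolic enzyme with synthetase, cyclohydrolase and dehydrogenase activities, measured 71.54, 72.37 and 70.38 FPKM in Vehicle and 62.97, 61.16 and 64.29 in XMU_MP_1. Each XMU_MP_1 library was below each Vehicle library, a fall of 1.14-fold with a log2 change of -0.18 ± 0.048 (limma adjusted p = 0.00732). MTHFD1 missed the threshold when the 2 closest libraries within each group were averaged (-0.18, adjusted p = 0.0894), and its log2 change was -0.28 with the libraries scaled to the same summed FPKM.

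PYCR1 (chromosome 17, 81932384 to 81942412), which encodes a mitochondrial pyrroline-carboxylate reductase, measured 66.83, 70.90 and 70.18 FPKM in Vehicle and 67.33, 64.28 and 73.14 in XMU_MP_1. The XMU_MP_1 values spanned those of Vehicle, and the log2 change was -0.02 with a 95% interval of -0.15 to 0.11 (limma adjusted p = 0.754). PYCR3, which encodes a cytosolic reductase, fell from 14.1 ± 0.547 to 11.2 ± 1.01 FPKM (log2 change -0.32 ± 0.070, limma adjusted p = 0.00275). For ALDH18A1, whose product makes the precursor of the reductases' substrate from glutamate, the means were 41.8 ± 0.594 in Vehicle and 39.9 ± 0.214 FPKM in XMU_MP_1 (log2 change -0.07, limma adjusted p = 0.241).

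In Vehicle the order of the levels, from high to low, was SHMT2, MTHFD1, PYCR1, MTHFD2, PSAT1, MTHFD1L, SHMT1, PSPH, ALDH1L2 and PHGDH. Of these neighbours MTHFD1 and PYCR1 overlapped in range, at 70.38 to 72.37 and 66.83 to 70.90 FPKM, as did PSAT1 and MTHFD1L, at 34.36 to 36.02 and 33.12 to 35.30 FPKM. The ranges of the other neighbours did not overlap. In XMU_MP_1 MTHFD2 reached the range of SHMT2, with 89.74 to 107.34 against 90.80 to 97.23 FPKM, and PSAT1, at 51.10 to 57.37 FPKM, lay above MTHFD1L with no overlap. PYCR1 and MTHFD1 still touched, at 64.28 to 73.14 and 61.16 to 64.29 FPKM. MTHFD1L and SHMT1 kept to 27.34 to 30.36 and 23.59 to 24.47 FPKM.

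**Figure D2:**
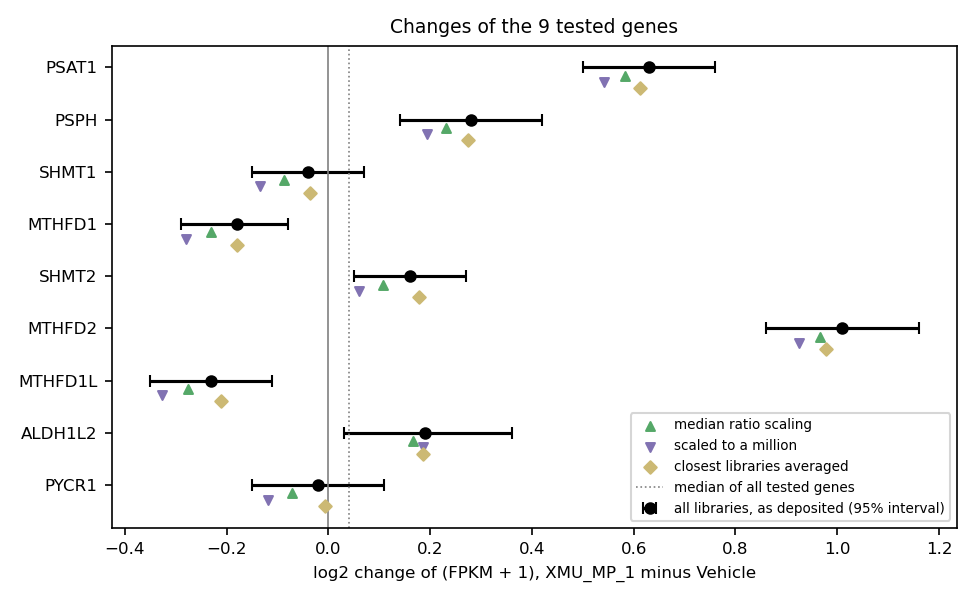
Log2 change of (FPKM + 1), XMU_MP_1 minus Vehicle, of the 9 tested genes with the 95% interval of the fit, and the same value under both scalings and with the closest libraries averaged. MTHFD2 at 1.01 and PSAT1 at 0.63 lie far from 0 under each of these settings, and SHMT2 and ALDH1L2 lie near it.

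Ratios within a library compare related enzymes and do not depend on the library's scale, apart from the added 1 FPKM in the tested log ratio. The FPKM ratio of MTHFD2 to MTHFD1 was 0.67, 0.67 and 0.72 in Vehicle and 1.70, 1.69 and 1.40 in XMU_MP_1. MTHFD2 was thus the lower of the pair in every Vehicle library and the higher in every XMU_MP_1 library. The mean log2 ratio went from -0.54 ± 0.057 in Vehicle to 0.66 ± 0.161 in XMU_MP_1. For SHMT2 to SHMT1 the FPKM ratio was 3.38, 3.42 and 3.35 in Vehicle and 3.71, 3.83 and 4.12 in XMU_MP_1, a log2 difference of 0.20. Both ratios separated the groups in all 6 libraries, each with p = 0.10 in an exact two-sided permutation test and 0.10 after adjustment over the 3 ratios computed. That is the smallest p that 3 libraries against 3 allow, so neither can reach 0.05. A ratio shows unequal change of its genes and not which of them changed.

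**Figure D3:**
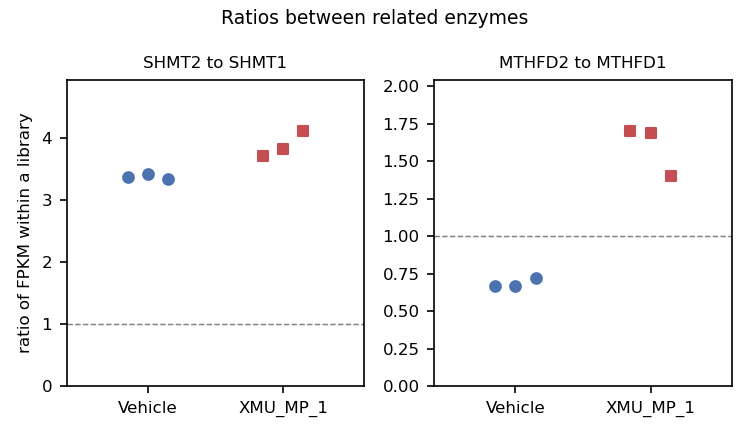
Ratio of FPKM within each library for 2 pairs of related enzymes, Vehicle as circles and XMU_MP_1 as squares, with a dashed line at a ratio of 1. MTHFD2 to MTHFD1 crosses the line, from at most 0.72 in Vehicle to at least 1.40 in XMU_MP_1.

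Of 3 transcription factor genes known to act on these routes, ATF4 changed most. ATF4 measured 175.69, 159.20 and 166.37 FPKM in Vehicle and 354.40, 362.06 and 387.92 in XMU_MP_1, a 2.2-fold rise with a log2 change of 1.13 ± 0.062 (limma adjusted p = 1.40e-07). In the values as deposited its highest library was XMU_MP_1 replicate 3, which was the lowest of its group for MTHFD2 and PSAT1. That library also had the highest summed FPKM, 527709, and a link between ATF4 and these genes was not tested. NFE2L2, which encodes the oxidative stress factor NRF2, was 1.18-fold higher (log2 change 0.23, limma adjusted p = 0.00153), but not with the libraries scaled to the same summed FPKM (0.14, adjusted p = 0.0771). MYC, a growth regulator, fell from 32.1 ± 0.784 to 26.8 ± 1.36 FPKM (log2 change -0.25, limma adjusted p = 0.00246).

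The genes around these routes were read from 6 lists of 66 genes in all, of which 64 were listed and 55 tested. In all 20 were higher and 17 lower, that is 36.4% and 30.9% of those tested, close to the 32.0% and 25.9% of all tested genes, and their median log2 change was 0.01. With the libraries scaled to the same summed FPKM the balance turned, with 12 higher and 22 lower. It turned likewise over all tested genes, of which that scaling called 19.6% higher and 30.9% lower. Against a minimum fold of 1.5 the only one of the 55 to pass was CTH.

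Transsulfuration and the methionine cycle held that largest change. Of 10 tested genes 5 (50%) were higher and 3 (30%) lower (median log2 change 0.09), against 32.0% and 25.9% of all tested genes. CTH, whose product makes cysteine from cystathionine, measured 2.10, 2.57 and 2.02 FPKM in Vehicle and 8.12, 7.38 and 6.71 in XMU_MP_1, a 3.32-fold rise with a log2 change of 1.38 ± 0.088 (limma adjusted p = 4.29e-07). CBS, which encodes the enzyme before it and uses serine directly, measured 5.63 ± 0.356 and 4.73 ± 0.902 FPKM and did not pass (log2 change -0.22, limma adjusted p = 0.0848), though it passed as lower with either scaling and with the closest libraries averaged. AHCYL2, a homologue of the adenosylhomocysteinase gene, rose 1.66-fold, and MAT2B, the regulatory subunit of methionine adenosyltransferase, rose 1.38-fold. MAT2A, its catalytic subunit, fell from 133.5 ± 4.16 to 114.2 ± 1.64 FPKM (limma adjusted p = 0.00297). MTR, the methionine synthase gene, fell (log2 change -0.32) and MTRR, the gene of its reductase, rose (0.44).

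Folate handling was evenly divided. Of 12 tested genes 3 (25%) were higher and 3 (25%) lower (median log2 change 0.03), against 32.0% and 25.9% of all tested genes. MTFMT, whose product uses formyl-folate to formylate mitochondrial initiator tRNA, measured 8.12, 6.86 and 7.97 FPKM in Vehicle and 12.68, 13.62 and 13.78 in XMU_MP_1, a 1.75-fold rise (limma adjusted p = 1.01e-05). SLC19A1, the reduced folate carrier gene, had means of 24.0 ± 1.35 in Vehicle and 15.3 ± 0.916 FPKM in XMU_MP_1, a fall of 1.57-fold (limma adjusted p = 1.32e-05). MTHFD2L, the closest relative of MTHFD2, measured 6.37, 6.63 and 7.20 FPKM in Vehicle and 5.79, 6.55 and 5.31 in XMU_MP_1 (log2 change -0.17, limma adjusted p = 0.0899), and passed as lower with either scaling. ALDH1L1, the cytosolic relative of ALDH1L2, was listed at 0.04, 0.02 and 0.00 FPKM in Vehicle and at 0.00 in all XMU_MP_1 libraries.

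In the list named glycine and serine breakdown 3 of 5 tested genes (60%) were higher and 0 lower in limma (median log2 change 0.28). Over all tested genes 32.0% were higher and 25.9% lower. At an unadjusted p below 0.05 there was 1 lower gene, SDSL, a relative of the serine dehydratase gene, with a log2 change of -0.23 (adjusted p = 0.0579). SDSL passed as lower with either scaling, with the replicate block and without the libraries that stand apart (-0.36, limma adjusted p = 0.00367). GCAT rose from 12.9 ± 0.0681 to 19.2 ± 1.01 FPKM (limma adjusted p = 1.78e-05). Its mitochondrial enzyme yields glycine in threonine breakdown, so its rise is not one of glycine breakdown. DLD, the shared dehydrogenase subunit of the glycine cleavage system and the ketoacid dehydrogenases, rose 1.22-fold, and SRR, the serine racemase gene, 1.28-fold. GLDC, which encodes the decarboxylase that starts glycine cleavage, was at 0.27 to 0.33 FPKM in Vehicle and 0.22 to 0.28 in XMU_MP_1, too low to be tested.

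Purine synthesis, which consumes formyl-folate, had more genes lower than higher. Of 12 tested genes 6 (50%) were lower and 2 (16.7%) higher (median log2 change -0.12), against 25.9% and 32.0% of all tested genes. With either scaling 7 were lower and 1 higher, against 29.5% to 30.9% and 19.6% to 26.8% of all tested genes. With the closest libraries averaged 4 were lower and 1 higher, against 21.7% and 24.6%. Leaving out 1 library at a time gave 4 to 6 lower. PFAS, which encodes an enzyme in the middle of the route, fell from 21.4 ± 1.66 to 14.6 ± 1.17 FPKM (limma adjusted p = 1.34e-04) and GMPS, which encodes the enzyme that makes GMP, from 18.9 ± 0.354 to 14.5 ± 0.425 FPKM (limma adjusted p = 1.76e-04). GART and ATIC, whose products take up the formyl units, had log2 changes of -0.22 each and both passed as lower. PPAT, the gene of the committing amidotransferase, went the other way, with means of 14.4 ± 0.57 in Vehicle and 24.6 ± 2.91 FPKM in XMU_MP_1, a rise of 1.71-fold (limma adjusted p = 2.20e-05). TYMS, the thymidylate synthase gene, measured 195.2 ± 7.54 and 211.1 ± 4.79 FPKM and did not pass (limma adjusted p = 0.102).

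Serine and glycine carriers and the proline and glutamate list were also divided. Of 8 tested carriers 4 (50%) were higher and 3 (37.5%) lower (median log2 change 0.07), against 32.0% and 25.9% of all tested genes. When the libraries were scaled to the same summed FPKM 1 carrier was higher, against 19.6% of all tested genes. SLC25A38, the mitochondrial glycine carrier gene, had means of 16.1 ± 0.458 in Vehicle and 26.4 ± 1.62 FPKM in XMU_MP_1, a rise of 1.64-fold (limma adjusted p = 4.20e-06). SFXN1, which encodes the main mitochondrial serine carrier, measured 32.5 ± 2.34 and 32.1 ± 2.5 FPKM (limma adjusted p = 0.849), whereas its relative SFXN3 fell 1.48-fold (limma adjusted p = 3.50e-05). SLC38A1, a plasma membrane amino acid carrier gene, fell 1.37-fold. Of 8 tested genes of proline, ornithine and glutamate 3 (37.5%) were higher and 2 (25%) lower (median log2 change -0.03), near those shares of all tested genes. With the libraries scaled to the same summed FPKM 1 was higher and 3 lower, against 19.6% and 30.9% of all tested genes. With the closest libraries averaged 1 was higher and 2 lower, against 24.6% and 21.7%. OAT, the ornithine aminotransferase gene, rose 1.38-fold, with its lowest XMU_MP_1 value, 56.23 FPKM, in replicate 3.

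**Figure D4:**
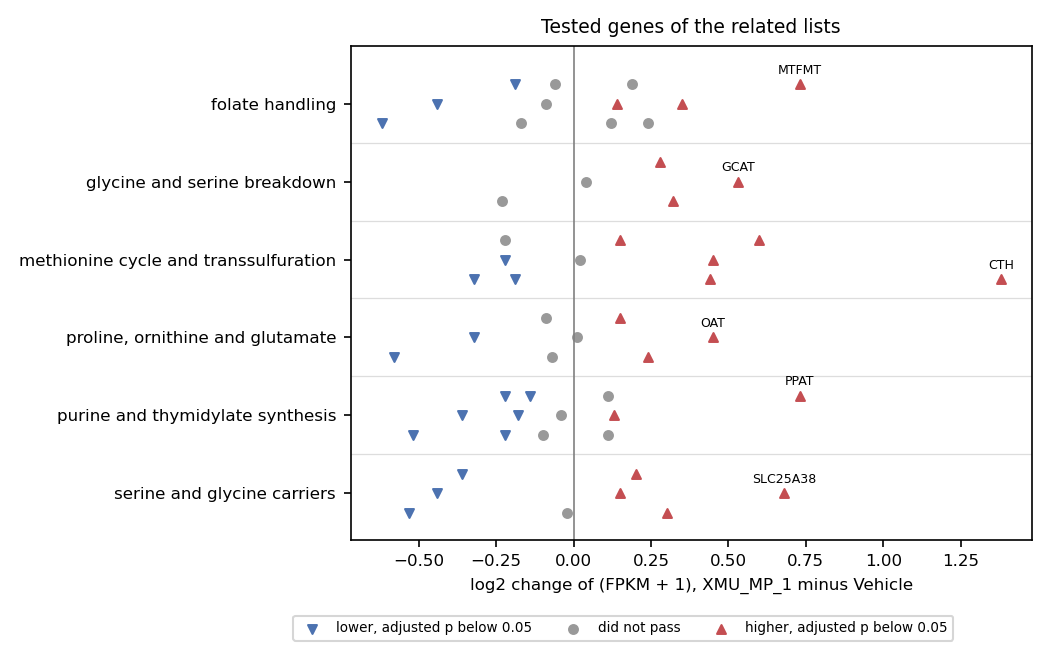
Log2 change of (FPKM + 1), XMU_MP_1 minus Vehicle, of the 55 tested genes in the 6 related lists, with triangles for genes past an adjusted p of 0.05 and the gene with the highest value in each list named. CTH at 1.38 lies farthest from 0, and every list has genes on both sides of 0.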

How the data were processed

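RNA was sequenced from 3 Vehicle and 3 XMU_MP_1 libraries of 786-O cells, grouped and numbered by their titles. The authors deposited 1 table of FPKM per library, with 2 decimals and 17114 symbols each, per the file headers. The submitters' processing notes name GRCh38. No source used here names the aligner, the quantifier, the strand setting or the annotation. Read counts and depth are unknown, so no count model was used.

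After leaving out genes whose mean was under 1 FPKM, 11151 were tested in limma 3.58.1 under R 4.3.3 with statmod 1.5.0. The model held group alone, on log2(FPKM + 1) without rescaling, and its moderation was robust and followed the mean-variance trend. P-values are two-sided, adjusted by Benjamini-Hochberg over all tested genes, with a threshold of 0.05. On simulated data with 11151 genes, 200 of them changed, this recovered 22.1% of log2 changes of 0.25, 77.6% of 0.5 and 98.5% of 1, with 3.37% of calls false. The simulation had independent normal noise and far fewer changed genes than the 57.9% called in the data. Its rates therefore cannot be carried over to this fit. Alternatives were another pseudocount, other filters, scaling by median ratios or to a summed FPKM of 1000000, a replicate block, plain moderation, a minimum fold of 1.5, the closest libraries averaged, each library left out, and, added after seeing the data, both libraries that stand apart left out.

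The genes and lists were chosen with earlier results of these data known. Named besides the 10 genes were related enzyme genes, 3 regulators and, per list, the 3 genes with the smallest adjusted p, a few of which are not reported here. CBS, MAT2A, MTR, MTRR, GLDC, GART, ATIC, TYMS, SFXN1 and SDSL were named after their values were seen. Positions are those of GENCODE 29, whole genes on GRCh38, and 7 of the 10 genes overlap a gene on the opposite strand.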

Additional observations from a re-analysis of the deposited data

How the results depend on the processing

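The 7 called genes kept their direction under every alternative that could test them, and MTHFD2 its call under all of them. ALDH1L2 was not tested with a minimum mean of 5 FPKM. With median ratio scaling SHMT2 (0.11) and ALDH1L2 (0.17) did not pass and 3 of the genes were higher. With the libraries scaled to the same summed FPKM PSPH (0.19), SHMT2 (0.061) and ALDH1L2 (0.19) did not pass, and 2 of the genes, 12 related genes and 2332 of all genes were higher. These scalings moved the median log2 change of all genes from 0.04 to -0.0038 and -0.0524. With the closest libraries averaged, which leaves fewer samples, SHMT2 (0.18), MTHFD1 (-0.18) and ALDH1L2 (0.18) did not pass. That left 3 of the genes higher and 1 lower, with 13 related genes and 2746 of all genes higher. Against a minimum fold of 1.5 PSPH (0.28), SHMT2 (0.16), MTHFD1 (-0.18), MTHFD1L (-0.23) and ALDH1L2 (0.19), whose changes are below that fold, did not pass. PSAT1 (0.63) exceeds it, but by too little for its spread, and did not pass either, leaving 1 gene higher and 0 lower, 1 and 0 related genes, and 158 and 455 of all genes. Without Vehicle replicate 2 and XMU_MP_1 replicate 3, chosen after seeing the data, ALDH1L2 (0.21, adjusted p = 0.0654) did not pass. The cause of these changes with scaling was not tested.

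Leaving out 1 library at a time gave log2 changes of 0.13 to 0.18 for SHMT2, 0.15 to 0.22 for ALDH1L2 and -0.074 to 0.018 for PYCR1, whose sign turned without XMU_MP_1 replicate 2, and 3 to 5 of the genes higher. With the replicate number as a block 5 of the genes were higher and 2 lower, and 3956 of all genes were higher and 3093 lower. Deviations of same-numbered libraries correlated at -0.20, 0.39 and 0.24, and those of the other pairs ran from -0.461 to 0.344. With 3 libraries per group these values cannot settle whether the numbers pair the libraries. Of the recomputed values 395 kept their direction and call, or stayed within 1.5 times the count, while 46 moved further, 22 lost a call and 1 changed sign. The within-library ratios are among the 395, and for them only a change of sign could be counted. Depth being unknown, differences at the level of PHGDH and ALDH1L1 were not detectable here.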

Other observations

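Genes of routes that use serine or glycine were read from 3 further lists, added after the files were seen and tested in the same limma fit. Of 8 tested heme synthesis genes, a route that starts from glycine, 4 were higher and 0 lower (median log2 change 0.15). Those are 50% and 0%, against 32.0% and 25.9% of all tested genes. In this list UROD passed as lower with the libraries scaled to the same summed FPKM (-0.18) and without the libraries that stand apart (-0.22), while 0 genes were lower at an unadjusted p below 0.05 in the values as deposited. The higher calls of UROS and FECH were lost with the libraries scaled to the same summed FPKM. ALAS1, the gene of its first enzyme, measured 40.32, 40.36 and 39.97 FPKM in Vehicle and 54.91, 54.97 and 55.52 in XMU_MP_1 (limma adjusted p = 1.39e-05). ALAD, the gene of the next enzyme, had means of 5.67 ± 0.0643 in Vehicle and 10.1 ± 0.3 FPKM in XMU_MP_1, a rise of 1.79-fold (limma adjusted p = 2.25e-06). The spread between replicates of both was small beside the difference.

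Of 11 tested genes of sphingoid base and phosphatidylserine synthesis 5 were higher and 2 lower (median log2 change 0.12). Those are 45.5% and 18.2%, against 32.0% and 25.9% of all tested genes. With the libraries scaled to the same summed FPKM SPTLC1, SPTLC2 and KDSR were no longer higher, and CERS2 (-0.19) and PTDSS2 (-0.22) passed as lower, which leaves 2 higher and 4 lower. That scaling called 19.6% of all tested genes higher and 30.9% lower. Subunits of serine palmitoyltransferase, which condenses serine with a fatty acyl group, went both ways. SPTLC3 fell from 1.79 ± 0.0473 to 0.693 ± 0.095 FPKM (limma adjusted p = 1.19e-05), and SPTSSA, a small activating subunit, rose from 14.2 ± 1.42 to 21.2 ± 1.11 FPKM (limma adjusted p = 9.08e-05). CERS6, a ceramide synthase gene, rose 1.88-fold. Of 6 tested glutathione genes 5 (83.3%) were higher (median log2 change 0.22), against 32.0% of all tested genes. The list holds breakdown as well as synthesis, and its widest change was that of CHAC1, whose product degrades glutathione, at 2.52, 2.55 and 2.15 FPKM in Vehicle and 11.90, 12.80 and 14.25 in XMU_MP_1. GCLC, the catalytic subunit gene of the limiting enzyme of synthesis, rose from 8.75 ± 0.423 to 16.2 ± 0.987 FPKM (limma adjusted p = 2.02e-06). GCLM, GSS and CHAC2 were among the 5 but did not pass with the libraries scaled to the same summed FPKM.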
